A study of Rattus norvegicus with 6 samples.

Results

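Acute phase proteins are plasma proteins that hepatocytes secrete in larger or smaller amounts after injury, blood loss or infection. The transcripts of 10 genes of this class were examined in rat liver: the fibrinogen chains Fga, Fgb and Fgg, the protease inhibitors A2m and Serpina3n, and Orm1, Lcn2, Crp, Saa4 and Cp. All 10 genes were found by matching RefSeq transcript accessions to gene symbols, on 11 of the 19345 rows of the array table, since Fga had 2 rows. The series describes male Sprague-Dawley rats, 90 to 120 days old, bled by tail amputation as a model of uncontrolled hemorrhagic shock and infused with Ringer's solution from the amputation onwards. The limited regimen aimed at a mean arterial pressure of 50 to 60 mmHg and the aggressive regimen at over 80 mmHg. Livers were taken at 330 min, and 3 of the 6 rats of each regimen were measured on 1-colour NimbleGen expression arrays, 1 array per liver sample. Both groups were bled and infused, and animals that were not bled are not analysed here, so each value sets one regimen against the other and none shows how far a transcript lay from its level in an unbled liver. The comparison asks whether the pressure target altered the transcripts of these secreted proteins.

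In hepatocytes the acute phase genes are switched on mainly by interleukin 6, whose receptor subunit gp130 activates the transcription factor STAT3, and by interleukin 1 and tumor necrosis factor, which act through NF-kB and C/EBP factors. Glucocorticoids enhance both routes. The fibrinogen chains and rat A2m are textbook targets of the interleukin 6 route, while Orm1 and complement C3 respond to interleukin 1 and interleukin 6 together.

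The promoters of 4 of these genes are shown as examples of the letters through which those routes are known to act. They are the 3 fibrinogen chain genes, all on chromosome 2, and Serpina3n. RefSeq promoter windows of the rat build GRCr8, 250 bases before and 50 bases after the annotated start, were matched for 8 of the 10 genes, in 9 windows. Each sequence below gives the 250 bases before the start, 5′ to 3′ on the gene's strand. Capitals mark CTGGGAA, the core of the interleukin 6 response element, TTCNNNGAA, the palindrome that STAT proteins bind, and TTGCNNAA, a form of the C/EBP site, on either strand.
Fgg, chr2:170652833-170653082, plus strand: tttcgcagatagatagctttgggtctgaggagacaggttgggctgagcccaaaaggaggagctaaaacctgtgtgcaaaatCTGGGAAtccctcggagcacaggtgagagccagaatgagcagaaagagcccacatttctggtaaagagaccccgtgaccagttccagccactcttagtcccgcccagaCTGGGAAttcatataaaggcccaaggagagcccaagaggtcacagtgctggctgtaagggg
Fga, chr2:170671919-170672168, plus strand: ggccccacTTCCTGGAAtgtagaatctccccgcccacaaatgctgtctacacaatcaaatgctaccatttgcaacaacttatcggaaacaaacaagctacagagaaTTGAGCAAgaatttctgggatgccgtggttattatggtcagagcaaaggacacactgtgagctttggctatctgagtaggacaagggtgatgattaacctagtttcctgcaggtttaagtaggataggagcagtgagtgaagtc
Fgb, chr2:170700876-170701125, minus strand: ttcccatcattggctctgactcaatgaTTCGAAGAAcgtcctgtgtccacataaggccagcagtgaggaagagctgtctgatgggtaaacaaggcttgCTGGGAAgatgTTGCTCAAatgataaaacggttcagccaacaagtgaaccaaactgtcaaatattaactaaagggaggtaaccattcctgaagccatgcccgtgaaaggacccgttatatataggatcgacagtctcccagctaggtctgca
Serpina3n, chr6:129088142-129088391, plus strand: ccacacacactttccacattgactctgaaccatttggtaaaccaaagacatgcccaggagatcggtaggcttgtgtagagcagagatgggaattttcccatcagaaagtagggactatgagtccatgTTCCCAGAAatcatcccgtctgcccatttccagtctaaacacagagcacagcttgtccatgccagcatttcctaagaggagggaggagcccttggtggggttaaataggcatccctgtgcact

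In the Fgg window CTGGGAA occurred at 169 and at 61 bases before the start, and TATAAA, the TATA box letters, at 50 bases before it. The Fgb window held CTGGGAA at 152 bases, TTGCNNAA at 141 bases and TTCNNNGAA at 223 bases before the start. For Fga, TTCNNNGAA stood at 242 and TTGCNNAA at 144 bases before the start. In Serpina3n the letters of CTGGGAA on the opposite strand lay inside the TTCNNNGAA match at 123 bases before the start, so both matches are 1 stretch. Genes not shown held such letters too. Lcn2 had CTGGGAA at 245 and TTGCNNAA at 191 bases before the start. TTGCNNAA stood at 123 bases in Orm1 and at 72 bases in Cp, while Crp held none of the marked motifs. CTGGGAA was found in 4 of the 9 windows and in 11.3% of all 33469 windows of this length, TTCNNNGAA in 3 windows and 8.87%, TTGCNNAA in 6 windows and 10.6%, and TATAAA in 4 windows and 14.2%. The 6 windows with TTGCNNAA belong to 5 genes, since both windows of Fga overlap and hold the same match. These are matches of letters, and the arrays do not measure binding.

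The deposited values were RMA intensities on a linear scale, with array medians between 212 and 245 and maxima between 50350.2 and 57240. Aggressive arrays 1 and 3 carried lung transcripts: Sftpc, the surfactant protein C gene, read 1247 and 1734 there, 33.7 in aggressive array 2 and 30.3 to 57.0 in the limited arrays. Differences of the acute phase rows are therefore also given against aggressive array 2 alone. For the gene lists no such differences are given. All 10 listed hepatocyte markers were measured and lay above the array medians, with Alb, the albumin gene, between 40478 and 54837, which fits the liver label. Bulk RNA cannot separate fewer cells of a type from less RNA per cell.

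Of the 11 acute phase rows, 10 sat near the top of the intensity scale. Averaged over the 6 arrays, they lay between 0.32 and 0.82 log2 units below the array maximum, that is at 57.3% to 80.4% of it. Only 133 of the 19345 rows (0.688%) lay within 1 log2 unit of the maximum on this average, and 10 of the 133 were acute phase rows. The exception was Cp, which encodes ceruloplasmin, the copper-carrying ferroxidase of plasma. It read 21.8% to 28.5% of the array maximum, 2.00 log2 units below it on average, at ranks 336 to 451 within the arrays. The other 10 rows ranged from rank 2, for Serpina3n in limited array 2, to rank 180, for A2m in the same array.

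**Figure D1:**
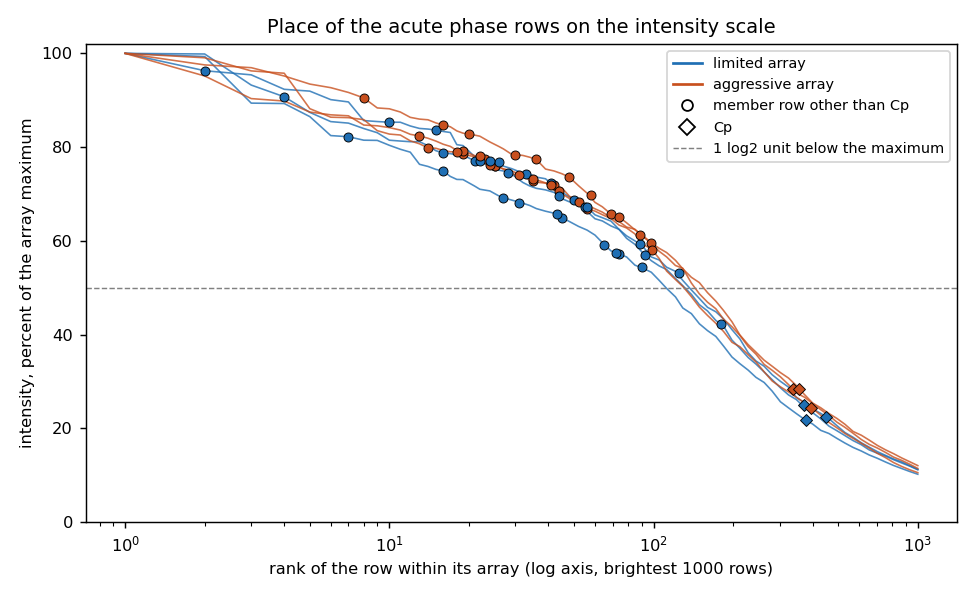
Intensity as a percent of each array's maximum (linear y axis) against the rank of the row within its array (log x axis), for the brightest 1000 rows; lines are the 6 arrays, circles the 10 acute phase rows other than Cp, diamonds Cp, and the dashed line marks 1 log2 unit below the maximum. Cp lies at 21.8% to 28.5% of the maximum in every array, and 1 circle, A2m in limited array 2, lies below the dashed line at 42.2%.

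The deposited values did not pile up at one ceiling. Between 2 and 5 rows per array lay within 0.1 log2 units of the maximum, and 5 different rows held the top place across the 6 arrays, among them Alb, which did so in aggressive arrays 1 and 2. Among the rows of highest mean log2 intensity that had a symbol were those of Alb, Ahsg, Eef1a1, Tf, C3, Fga, Ttr, Apoa4 and Apoe. These 9 rows differed between the regimens by -0.11 to 0.10, and by limma 0 of them passed and 0 had an unadjusted p under 0.05. The 100th brightest row read 52.9% to 59.2% of the maximum. Of the 66 acute phase values, 11 recurred exactly in another array, as did 19.2% to 19.9% of all values of each array. Fgb in limited array 1 and Saa4 in aggressive array 3 shared the value 38953. The table holds no saturation flag for any spot, and whether single probes had saturated before RMA was not tested. Intensities of different genes come from different probes, so their order is not an order of transcript abundance.

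No acute phase row passed when the regimens were compared. By limma's moderated test with Benjamini-Hochberg adjustment over all 19345 rows, 0 of the 11 rows passed at 0.05, and their adjusted p values lay between 0.577 and 0.999. Over all rows 0.114% passed, 22 in number. An unadjusted p under 0.05 was reached by 0 of the 11 rows, against 13.1% of all rows, and the arrays of the groups overlapped in all 11, whereas 19.8% of all rows did not overlap. This fit draws each row's variance towards a single prior variance, so rows of low spread get larger p values. The median within-group SD was 0.12 in the 11 rows and 0.31 over all rows. The part of the prior in the shares of bright rows was not tested. Among the 133 rows within 1 log2 unit of the maximum, 0.0% passed, 1.5% had an unadjusted p under 0.05 and 15.0% did not overlap. With an intensity trend and a robust prior, limma passed 1 of these 133 rows and 570 of all rows, and again 0 of the 11.

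The log2 differences, limited minus aggressive, ran from -0.28 to 0.18, with 5 above and 6 below 0. Their median was -0.09, beside 0.01 over all rows. The 95% intervals, not adjusted for the number of rows, all lay between -0.71 and 0.66. On the deposited scale this corresponds to at most 1.63-fold higher under aggressive and 1.58-fold higher under limited resuscitation, so each interval ended short of 2-fold. Against aggressive array 2 alone, where only the limited arrays give a within-group spread, the median was -0.09.

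**Figure D2:**
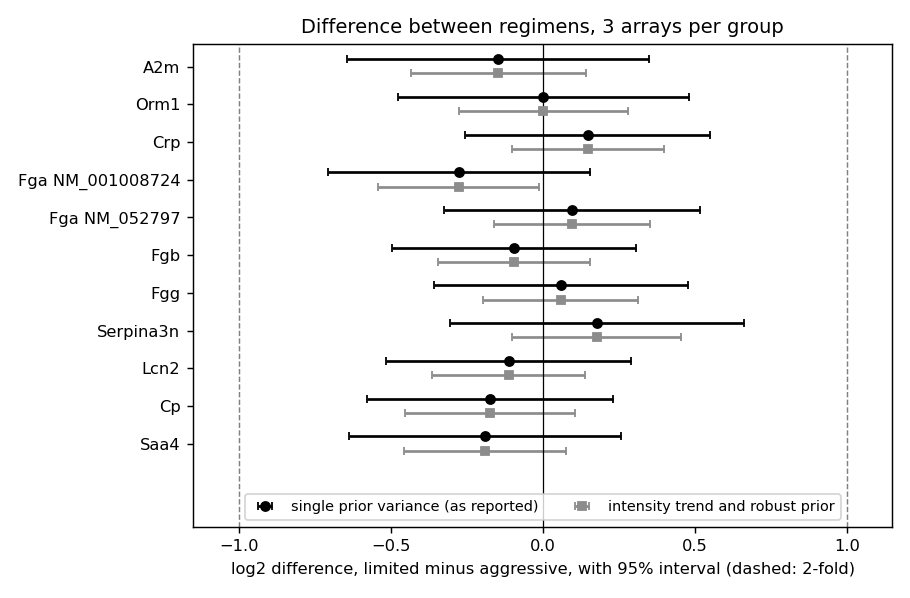
Log2 difference, limited minus aggressive, of each acute phase row with its 95% interval (3 arrays per group), black with a single prior variance as reported and grey with an intensity trend and robust prior; dashed lines mark 2-fold. All intervals lie inside the dashed lines, and the black intervals all include 0.

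Fibrinogen is a hexamer of paired alpha, beta and gamma chains, which thrombin cuts to form the fibrin clot, and its genes are coordinately expressed in hepatocytes. The 4 fibrinogen rows lay between 28411 and 48414 over all arrays, a 1.70-fold span. All 4 lay near the top of the scale and come from different probes, so this span does not measure agreement between the chains. Fgb, the beta chain, read 38953, 39127 and 42024 in limited arrays 1, 2 and 3 and 40238, 42489.8 and 45564 in aggressive arrays 1, 2 and 3. Its 6 values spanned 1.17-fold, the smallest span of the 11 rows, and the groups overlapped. The log2 difference was -0.09 (SE 0.171, adjusted p = 0.857, limma).

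Fgg, the gamma chain, whose promoter above holds CTGGGAA at 2 places, read 47060.1, 40118 and 41099 under limited and 38022, 43296 and 41659 under aggressive resuscitation. Limited array 1 was the highest and aggressive array 1 the lowest, with the other 4 arrays between them. The log2 difference was 0.06 (SE 0.178, adjusted p = 0.920, limma).

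The alpha chain gene Fga was measured by 2 transcript rows. Row NM_001008724 read 32867, 30728 and 28411 under limited and 40189, 38713 and 32774 under aggressive resuscitation. The groups overlapped only through limited array 1 and aggressive array 3, and the mean was 30669 ± 2228 (SD, n = 3) against 37226 ± 3925 (SD, n = 3). Its log2 difference of -0.28 (SE 0.183) was the largest in size of the 11 rows and did not pass (adjusted p = 0.577, limma). With an intensity trend and a robust prior its 95% interval ran from -0.54 to -0.01, and the adjusted p was 0.293 by limma.

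Row NM_052797 of the same gene read 39612, 46074 and 48414 under limited and 41875, 43774 and 39454 under aggressive resuscitation. Here the limited arrays held both the 2 highest values and the next to lowest, and the log2 difference was 0.10 (adjusted p = 0.861, limma). Because the 2 rows of Fga differed in sign, their log2 ratio within each array was compared after these values had been seen. The ratio of NM_052797 to NM_001008724 was 0.269, 0.584 and 0.769 in the limited arrays and 0.0593, 0.177 and 0.268 in the aggressive arrays. The groups did not overlap, by the small gap between 0.269 and 0.268, and the difference of means was 0.37. This is the difference between the log2 differences of the rows, which prompted it. An exact two-sided permutation test gave p = 0.1, the smallest value it can reach with 3 arrays per group. It therefore cannot decide whether the ratio changed. Which probes each row used is not stated, so only the change of the ratio, and not its level, can be read.

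A2m encodes alpha-2-macroglobulin, a protease trap that is the classical strongly induced acute phase protein of the rat. It read 33867, 22780.2 and 31614 under limited and 31422, 31843 and 33081 under aggressive resuscitation. Limited array 2 stood apart from the other 5, which lay within 31422 to 33867. The log2 difference was -0.15 (SE 0.211, adjusted p = 0.814, limma), and it was 0.03 without limited array 2.

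Serpina3n, a serine protease inhibitor related to human antichymotrypsin, went the other way in that array. It read 37186, 52009.7 and 37075 under limited and 38497, 36671 and 35104 under aggressive resuscitation, so limited array 2 was the highest and the other 5 lay close together. The log2 difference was 0.18 (SE 0.206, adjusted p = 0.760, limma), and 0.02 without limited array 2. These rows, with Orm1, had the widest spread of the 10 near the top. Their within-group SD was 0.22 log2 units for A2m, 0.20 for Serpina3n and 0.20 for Orm1, ranks 14, 21 and 24 among the 133 rows near the maximum, whose median SD was 0.14.

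Orm1 encodes alpha-1-acid glycoprotein, a plasma carrier of drugs and lipids. It read 32719, 37059 and 39778 under limited and 36131, 43023 and 30889.8 under aggressive resuscitation. The aggressive arrays held both the highest and the lowest value. The means were 36518 ± 3561 (SD, n = 3) and 36681 ± 6085 (SD, n = 3), and the log2 difference was 0.0021 (SE 0.203, adjusted p = 0.999, limma).

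Lcn2 encodes lipocalin 2, which binds bacterial siderophores and is also stored in neutrophil granules. Its intensity was 37667, 41452 and 35861 under limited and 41237, 40166 and 42658 under aggressive resuscitation. The groups overlapped through limited array 2, and the log2 difference was -0.11 (SE 0.172, adjusted p = 0.828, limma). Summed intensities of the 6 measured neutrophil markers, of 11 listed, lay between 3327 and 5529 under limited and between 3661 and 4193 under aggressive resuscitation. Of these 6 markers, 2 lay below the array median in every array. S100a8, a neutrophil calcium-binding protein gene, read 1146 to 1362 against 1258 to 1580.4. The part of neutrophils in the Lcn2 values was not tested.

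Crp encodes C-reactive protein, a pentraxin that binds phosphocholine on microbes and damaged cells. It read 42884, 45172 and 41129 under limited and 37992, 41627 and 37044 under aggressive resuscitation. The 2 lowest values were aggressive and the groups overlapped only through limited array 3 and aggressive array 2. The log2 difference was 0.15 (SE 0.171, adjusted p = 0.760, limma).

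Saa4, a serum amyloid A apolipoprotein of high-density lipoprotein, read 31091, 41653 and 35859.8 under limited and 43550.2, 40629 and 38953 under aggressive resuscitation. Limited arrays 1 and 3 were the lowest, and limited array 2 lay among the aggressive values. The log2 difference was -0.19 (SE 0.191, adjusted p = 0.721, limma). Whether Saa4 itself rises in injury in the rat was not examined, and the related genes Saa1 and Saa2 were matched to no row.

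Cp, the dimmest of the 11 rows, read 12450.3, 13446 and 11993 under limited and 15042, 13385 and 14314 under aggressive resuscitation. The overlap came from limited array 2 and aggressive array 2 alone. The means were 12629.8 ± 743 (SD, n = 3) and 14247 ± 831 (SD, n = 3), and the log2 difference was -0.17 (SE 0.172, adjusted p = 0.717, limma).

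**Figure D3:**
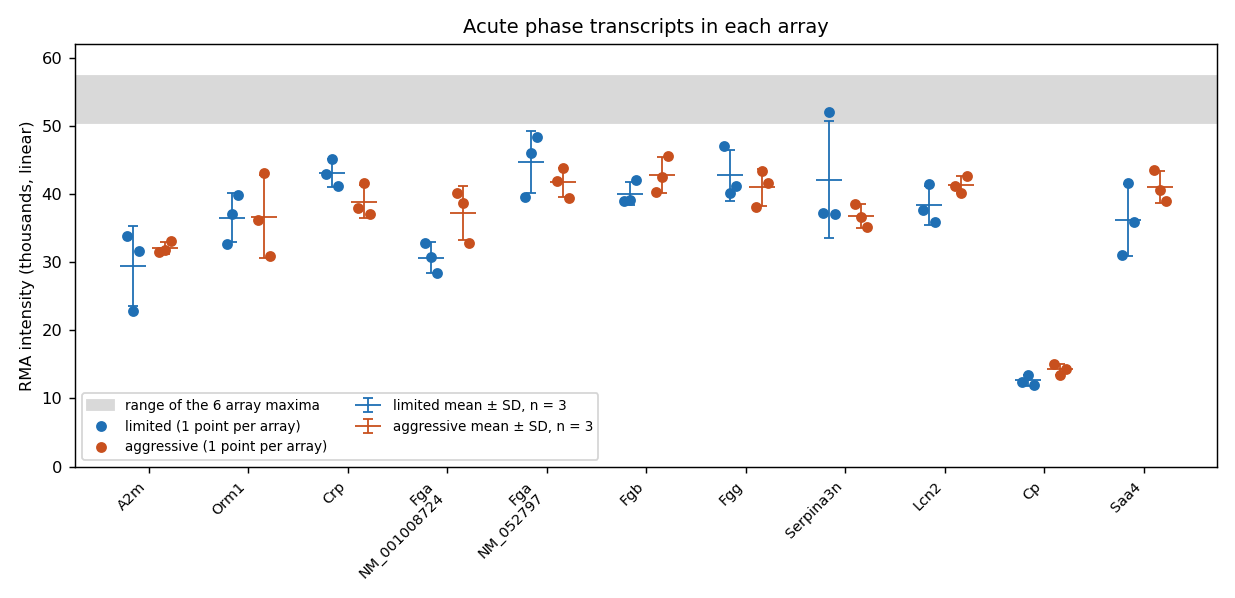
RMA intensity in units of 1000 (linear y axis from 0) of the 11 acute phase rows; points are single arrays, 3 limited in blue and 3 aggressive in orange, bars are mean ± SD, and the grey band spans the 6 array maxima, 50350.2 to 57240. Serpina3n in limited array 2, at 52009.7, is the one point that reaches the band, and A2m in limited array 2, at 22780.2, lies below the other A2m points.

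The wider acute phase response was read from 3 lists. Positive acute phase proteins are those that rise in injury, and whether each listed gene does so in the rat was not examined. Of 28 measured genes among 35 listed as other positive acute phase proteins, 19 also lay within 1 log2 unit of the array maximum. By limma 0 of the 28 passed over all rows, while 2 had an unadjusted p under 0.05, beside 13.1% of all rows. The list's median log2 difference was -0.02, with 14 genes above and 14 below 0. Il1rn, the interleukin 1 receptor antagonist, read 3979, 3758 and 4109 under limited and 8944, 6846 and 7650.1 under aggressive resuscitation. The groups did not overlap, and the log2 difference of -0.98 did not pass (adjusted p = 0.121, limma). Steap4, a metalloreductase, differed by -0.43 without overlap (adjusted p = 0.367, limma), and Kng2l1, a kininogen, by -0.44 with overlap (adjusted p = 0.455, limma).

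Negative acute phase proteins are those whose transcripts fall in injury, and whether each listed gene does so in the rat was not examined. Some of them shared the top of the scale. Of 20 listed genes 16 were measured, and 9 lay within 1 log2 unit of the maximum. By limma 0 passed, with 0 at an unadjusted p under 0.05, beside 13.1% of all rows. The median difference was -0.06, with 5 above and 11 below 0. Apoa1, the main apolipoprotein of high-density lipoprotein, read 37141, 29337 and 28411 under limited and 41922, 40260.4 and 44488 under aggressive resuscitation, without overlap, and differed by -0.43 (adjusted p = 0.405, limma). Igfals, the acid-labile subunit that carries insulin-like growth factors, differed by 0.40 and F12, coagulation factor XII, by 0.25, and neither passed (adjusted p = 0.461 and 0.665, limma).

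Of the 33 listed inducers, receptors and transcription factors 26 were measured, and none lay within 1 log2 unit of the maximum. By limma 0 passed over all rows, although 6 had an unadjusted p under 0.05, as had 13.1% of all rows. The median difference was -0.01. The hepatocyte factor Cebpa differed by 1.68 (adjusted p = 0.0829, limma), the cytokine Tnf by 1.05 (adjusted p = 0.113, limma) and Lif, a cytokine that signals through gp130, by -1.37 (adjusted p = 0.130, limma). Lif was dim, at 52.7 to 83.1 under limited and 126 to 199 under aggressive resuscitation. In 9 of the 26 genes the groups did not overlap, beside 19.8% of all rows. By brightness that share of rows ran from 11.97% in the dimmest 25% to 29.7% between the 90th and 95th percentile. Named here after their values were seen, the other genes with an unadjusted p under 0.05 were Il1b at 0.87, Il6 at -1.06 and Cebpb at -0.42, with adjusted p values of 0.197, 0.274 and 0.376 by limma. Il6, the inducer itself, was also dim, at 34.3 to 51.8 under limited and 60.5 to 141 under aggressive resuscitation. Along its route the receptor gene Il6r differed by -0.52 without overlap, the gp130 gene Il6st by -0.09, Stat3 by -0.07 and the feedback inhibitor Socs3 by 0.01, also named after their values were seen, with adjusted p values of 0.400, 0.879, 0.906 and 0.987 by limma.

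**Figure D4:**
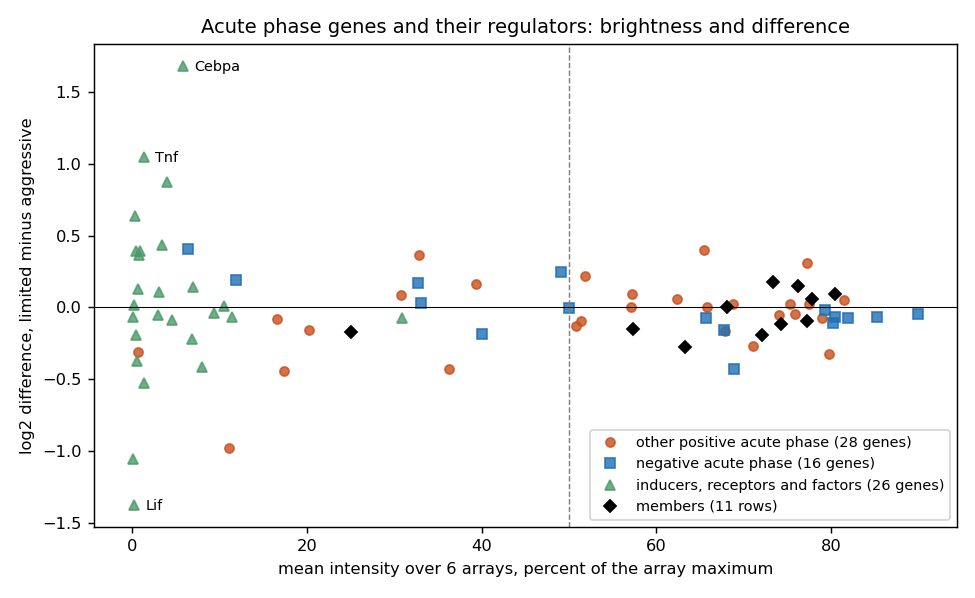
Log2 difference, limited minus aggressive (y axis), against the mean intensity over 6 arrays as a percent of the array maximum (x axis), for the 11 acute phase rows (black diamonds) and 3 gene lists, with the dashed line at 1 log2 unit below the maximum. Lif at -1.37, Tnf at 1.05 and Cebpa at 1.68 lie at the dim end, and the acute phase rows lie between -0.28 and 0.18.

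Rows as bright as these had smaller differences between the regimens, and smaller spread, than dimmer rows. In the brightest 1% of rows, 194 in number and 10 of them acute phase rows, the median absolute log2 difference was 0.11 and the median within-group SD 0.15. In the dimmest 25% of rows these values were 0.35 and 0.54. Between the 95th and 99th percentile of brightness, where Cp lay, they were 0.18 and 0.17. The share of rows whose groups did not overlap was 19.1% in the brightest 1%, against 28.4% between the 95th and 99th percentile. By this measure the brightest rows were not the lowest, since the share was 11.97% in the dimmest 25% and 16.9% between the 25th and 50th percentile. With a single prior variance, 2.58% of the rows in the brightest 1% reached an unadjusted p under 0.05. The share was 10.7% between the 95th and 99th percentile and 12.3% in the dimmest 25%. By limma 0 of the 194 rows passed, and 3 did so with an intensity trend and a robust prior. The one row of the 194 that differed over 2-fold was Igfbp1, which encodes an insulin-like growth factor binding protein, at 13904 to 14909 under limited and 27186 to 40055 under aggressive resuscitation (adjusted p = 0.0912, limma). It was named after its values were seen. These shares describe the deposited values, and whether intensity followed RNA amount equally along the scale was not tested.

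**Figure D5:**
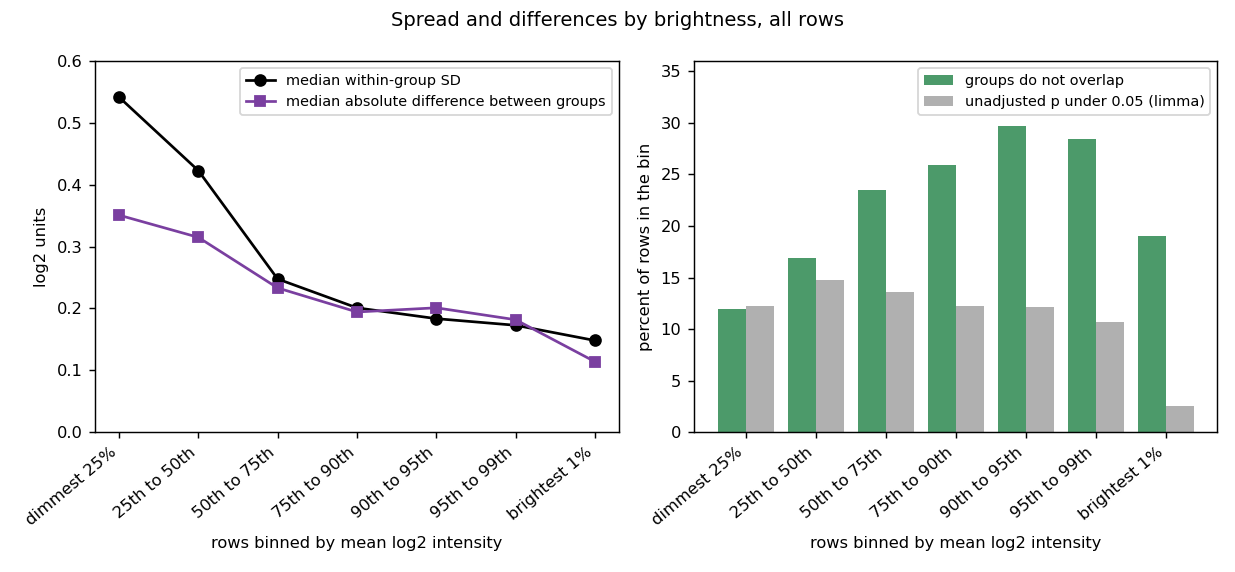
Left, median within-group SD and median absolute difference between groups in log2 units; right, percent of rows whose groups do not overlap and percent with an unadjusted p under 0.05 by limma with a single prior variance, for all 19345 rows in 7 bins of mean log2 intensity. Both lines on the left are lowest in the brightest 1%, at 0.15 and 0.11, and the grey bar there is the lowest on the right, at 2.58%.

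Summed marker intensities of the 4 cell type lists were set beside the acute phase values. The 9 measured of 11 macrophage markers summed to 43962 to 50988 under limited and 29309 to 34427 under aggressive resuscitation, with the receptor gene Csf1r differing by 1.12 (adjusted p = 0.0899, limma). The sums did not overlap, also with any 1 marker left out. Summed intensities of the 10 hepatocyte markers were 261551 to 288844 under limited and 295464 to 321967 under aggressive resuscitation. They did not overlap, but did so when Tat or Apoa1 was left out, at 250879 to 276333 and 262452 to 287653 without Tat. Tat, which encodes the glucocorticoid-inducible tyrosine aminotransferase, read 10672 to 12638 under limited and 32508 to 34314 under aggressive resuscitation and passed (log2 difference -1.48, adjusted p = 0.0482, limma). For the 11 measured of 12 lung markers the sums were 1415 to 1999 and 2902 to 8086, and 2 of these markers lay below the array median in every array. In aggressive array 2 that sum was above the limited arrays through Car4, a carbonic anhydrase gene, and Pdpn, the podoplanin gene, at 802 and 739 there. Without both, its sum was 1362, within the limited range of 1238 to 1511. Car4 read 101 to 129 under limited and 695 to 970.3 under aggressive resuscitation and passed (log2 difference -2.78, adjusted p = 0.0348, limma). Tat, Car4 and Pdpn were named after their values were seen. The part of these shifts in the acute phase values was not tested.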

How the data were processed

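Liver RNA of 6 rats was labelled with Cy3 and hybridised to 1-colour NimbleGen arrays, per the labels' protocols. The table the authors deposited has 19345 RefSeq transcript rows with 1 intensity for every array, made with RMA per the submitters' processing notes. For RMA's version, the scanner, the probe annotation and the array build, nothing is stated in the labels. The label fields name both Trizol and RNeasy extraction. No depth applies to arrays, and 3 arrays per group limit the precision. Whether rats were handled together is not stated. The limma p-values rest on the spread between these samples together with a prior variance taken over all rows.

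Values were log2 transformed. Unversioned accessions were matched to symbols in a RefSeq table of GRCr8, which named 7223 rows with 1 symbol and left 12122 unnamed. No array coordinates are printed. All rows, with no filter, were fitted in limma 3.58.1 under R 4.3.3, using lmFit followed by eBayes with 4 residual and 3.26 prior degrees of freedom. Tests were two-sided, with Benjamini-Hochberg adjustment and a threshold of 0.05, and the procedure was tested on simulated data. Lists used 1 row per gene, the brightest, and got no test of their own. Named by rule were all member rows, the 3 genes with the smallest p and every passing gene of each of the 3 pathway lists, the 10 brightest rows with a symbol, and 4 markers. Genes with a similar pattern were to be named for member rows spanning over 1 log2 unit, and none did. The members and lists were chosen with earlier results of these data known. Alternatives were other normalisations, a filter on dim rows, other priors, weighted arrays, a block on the replicate number and arrays left out. Leaving markers out of the sums was chosen after seeing the data. A few genes of the lists and of the brightest rows are not reported here and are left out of the counts. Plots were made in matplotlib 3.10.9.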

Additional observations from a re-analysis of the deposited data

How the results depend on the processing

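In all 13 refits 0 of the 11 acute phase rows passed, and the smallest adjusted p was 0.293 by limma. The count over all rows was 483 after removal of the rows below the median brightness, 570 with an intensity trend plus robust prior, 2525 at an unadjusted p under 0.05, 0 against aggressive array 2 alone, and 0 to 2 on leaving out single arrays (2 where aggressive array 2 was dropped, 0 in the other 5 fits). Whether arrays with the same replicate number in the 2 groups belong together is not stated. Their correlations of deviations from the group means were -0.06, -0.05 and 0.05, and with the number as a block 0 rows passed. The median over the acute phase rows was -0.114 to -0.0108 with 1 array left out, nearest 0 without limited array 2. Of 154 member values under the alternatives, 10 changed sign, in Orm1, Fgg and A2m. Orm1, at 0.0021 as reported, was -0.0330 with centred arrays, -0.0329 with array weights, -0.24 against aggressive array 2 alone and -0.12 to 0.12 with 1 array left out. Fgg was -0.0216 against aggressive array 2 alone and -0.0116 to 0.10 with 1 array left out, and A2m -0.26 to 0.0273. The cause was not tested. Ranks within the array kept every sign, and 10 rows stayed near the maximum under every reference level or array left out that was tried.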
